A study of Mus musculus with 16 samples.

Results

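Genomic imprinting marks a gene by the parent it came from, so that mainly the maternal or the paternal copy is expressed. The mark is DNA methylation laid down in the egg or sperm, and it is kept through early development by zinc finger proteins that hold methylation on one parental copy. Several imprinted genes act on growth, and in the developing brain they are also known in neural stem cells and young neurons. The genes described here are 9 of the 20113 genes with a promoter count and a gene-end count in the deposited tables: Peg3, Mest, Plagl1, Dlk1, Ndn, Snrpn, Igf2, Igf2r and Grb10. They were chosen by name, with their numeric gene IDs matched to symbols, and not by a rule on measured values. Earlier results of these data were known when they were chosen. In most mouse tissues Igf2r and Grb10 are expressed mainly from the maternal copy, and the other genes mainly from the paternal copy.

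The measurements were ATAC-seq libraries, in which a transposase inserts sequencing adapters into open chromatin, so that read counts follow how accessible a window is. Neural stem and progenitor cells of mice were taken at E12.5 from the dorsal telencephalon, the source of the neocortex, and grown as neurospheres. On C57BL/6 there were 4 wild-type (WT) embryos and 4 homozygous Kat6b-/- knockout (KO) embryos, and on the FVB x BALB/c hybrid background there were 4 WT embryos and 4 embryos carrying Tg(Kat6b), a transgene that overexpresses Kat6b (Tg). Kat6b encodes a histone acetyltransferase, and the comparisons ask how its loss and gain change accessibility. Each library held 50000 mouse cells with 50000 Drosophila S2 cells added, and spike-in counts were not analysed here. The labels give no sex, litter, preparation date or transgene copy number. No library served in both the KO and the Tg comparison. Counts do not separate the parental copies, and in a bulk library fewer cells with an open window and less opening per cell cannot be told apart.

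Promoter counts summed to between 1384643 and 5015408 per library and gene-end counts to between 198347 and 489743. Every Tg library was deeper than every WT FVB x BALB/c library, so genotype and depth went together in that comparison. Promoter totals were 4023140 to 5015408 in Tg and 1384643 to 3101439 in WT FVB x BALB/c. Gene-end totals were 398691 to 489743 and 198347 to 360958. The Kat6b promoter stood at 230 ± 5.39 CPM (TMM-scaled counts; SD, n = 4) in WT FVB x BALB/c and at 3175 ± 309 in Tg, and it was not called different in KO (298 ± 2.12 against 273 ± 22.9). A 5015 bp region of chromosome 14 was picked for having 0 counts in all KO libraries and, among such regions, most in WT C57BL/6. It held 402 counts there, 5264 in Tg and 471 in WT FVB x BALB/c, summed over libraries and not scaled for depth. Counts on chromosome Y were 48.6 to 61.3 CPM in WT FVB x BALB/c libraries but 0.458 to 9.01 in Tg, so the Tg genotype and this sex-linked signal cannot be told apart. Of 12 neural stem and progenitor markers none was at 0, and their summed promoter level was 1323 ± 26.2 CPM in WT C57BL/6 and 1095 ± 34.9 in WT FVB x BALB/c.

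The promoters of Dlk1, Ndn, Peg3 and Igf2r are printed because they were the members called different in Tg, and RefSeq lists a lone start for each of them. Each sequence runs from 250 bases before to 50 bases after the start in GRCm38.p6, read on the strand of the gene, and capitals mark CpG, the pair of bases at which imprints are methylated. The deposited promoter windows of 2001 bp were counted on another build, mm39.
Dlk1, chr12:109452573-109452872, plus strand: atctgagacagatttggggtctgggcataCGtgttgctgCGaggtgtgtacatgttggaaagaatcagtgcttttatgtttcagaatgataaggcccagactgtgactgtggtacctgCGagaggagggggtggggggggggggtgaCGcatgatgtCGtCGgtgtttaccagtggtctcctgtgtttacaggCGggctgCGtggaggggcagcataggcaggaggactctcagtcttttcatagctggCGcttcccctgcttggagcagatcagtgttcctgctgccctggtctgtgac
Ndn, chr7:62348027-62348326, plus strand: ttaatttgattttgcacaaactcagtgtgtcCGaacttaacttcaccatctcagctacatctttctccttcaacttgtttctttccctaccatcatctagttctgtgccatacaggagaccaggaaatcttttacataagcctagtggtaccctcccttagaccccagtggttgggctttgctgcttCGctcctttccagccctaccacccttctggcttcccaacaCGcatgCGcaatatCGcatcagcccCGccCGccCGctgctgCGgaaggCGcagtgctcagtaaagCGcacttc
Peg3, chr7:6730370-6730669, minus strand: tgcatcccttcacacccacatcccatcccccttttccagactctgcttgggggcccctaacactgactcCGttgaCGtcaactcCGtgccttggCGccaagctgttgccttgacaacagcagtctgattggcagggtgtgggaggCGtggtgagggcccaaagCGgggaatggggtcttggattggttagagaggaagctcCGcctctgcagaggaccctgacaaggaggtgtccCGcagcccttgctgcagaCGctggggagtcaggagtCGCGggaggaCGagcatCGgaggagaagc
Igf2r, chr17:12769657-12769956, minus strand: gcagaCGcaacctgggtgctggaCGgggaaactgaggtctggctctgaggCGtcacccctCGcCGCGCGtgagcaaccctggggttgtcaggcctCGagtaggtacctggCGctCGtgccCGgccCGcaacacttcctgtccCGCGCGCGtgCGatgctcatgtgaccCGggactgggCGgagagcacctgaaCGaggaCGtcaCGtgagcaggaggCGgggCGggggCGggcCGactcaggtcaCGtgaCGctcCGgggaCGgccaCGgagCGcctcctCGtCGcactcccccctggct

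The Igf2r stretch held 34 CpG pairs, Peg3 13, Ndn 11 and Dlk1 9, against a median of 7 over 32851 RefSeq promoter windows of 300 bases. RefSeq lists 18 start windows for the 9 genes, and their CpG counts ran from 2 at a Snrpn start and at an Igf2 start to 45 at a Grb10 start. The hexamer TGCCGC, the core sequence that the imprint-protecting protein ZFP57 binds when it is methylated, was searched on both strands. It was present in 6 of the 18 windows (Igf2, both overlapping downstream Mest windows, Plagl1, Grb10 and Snrpn) and in 11.6% of all windows. None of the printed sequences held it.

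Peg3 had the most open promoter of the group in all 4 groups, and its range did not overlap that of the next gene in any of them. Peg3 encodes a zinc finger protein of the paternal copy with roles in growth and maternal behaviour. Its promoter mean of 96.4 to 114 CPM put it at percentile 86.4 to 89.0 of all tested promoters. The other 8 promoters were of middling to low accessibility, at percentile 23.8 to 59.7. In WT C57BL/6 the order after Peg3 was Grb10, Plagl1, Ndn, Igf2r, Snrpn, Dlk1, Mest and Igf2, from 44.5 ± 4.82 down to 11.5 ± 1.67 CPM (SD, n = 4). Only between Ndn and Igf2r in that sequence did neighbouring ranges not overlap. In WT FVB x BALB/c the order was Ndn, Plagl1, Igf2r, Grb10, Dlk1, Igf2, Mest and Snrpn, from 42.1 ± 3.09 down to 10.2 ± 2.63 CPM, and only Ndn stood clear of its next neighbour. All promoter windows have the same length, so these levels compare between genes per length. RefSeq lists several starts for Igf2, Mest, Snrpn and Grb10, and which of them the counted window surrounds is not given. Levels and changes of these genes hold for the counted window only.

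**Figure D1:**
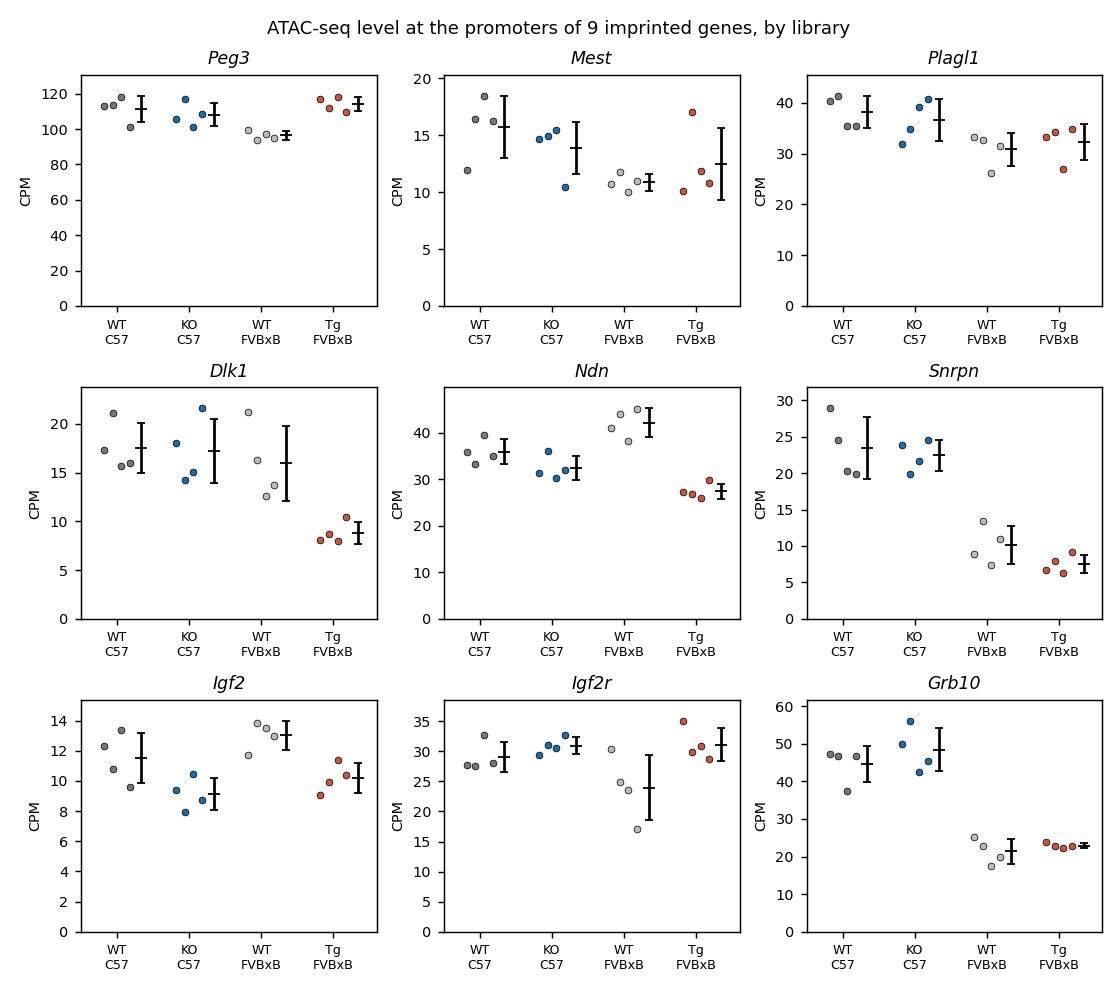
ATAC-seq level (CPM, y axis from 0, a scale for each gene) at the 9 promoters in 4 libraries per group (x axis; C57 is C57BL/6 and FVBxB is FVB x BALB/c); points are libraries and bars are mean ± SD. Dlk1 was 8.03 to 10.4 CPM in Tg and 12.6 to 21.2 in WT FVB x BALB/c, and Grb10 was 37.3 to 56.0 CPM in all 8 C57BL/6 libraries and 17.4 to 25.3 in all 8 FVB x BALB/c libraries.

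Loss of Kat6b left no member's promoter called different from WT. This was 0 of 9, where 3.99% of the 20008 promoters tested were called (edgeR adjusted p under 0.05). No member reached an unadjusted p under 0.05, the smallest being 0.105, and DESeq2 and limma-voom also called 0 of 9. The KO and WT libraries overlapped at every member, whereas 10.0% of all promoters had groups that did not overlap. The member median log2 change was -0.05, against -0.01 over all promoters.

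Igf2, which encodes a fetal growth factor, had the lowest promoter level of the group in C57BL/6 cells. It stood at 12.3, 10.8, 13.4 and 9.57 CPM in the WT libraries and at 9.41, 7.95, 10.5 and 8.75 in KO. The KO values lay mostly below the WT values, with overlap, and the log2 change was -0.33 (95% interval -0.72 to 0.07). Dlk1 had a log2 change of -0.00 (interval -0.32 to 0.31), from 15.7 to 21.2 CPM in WT and 14.2 to 21.6 in KO. Peg3, the most precisely measured member, had a log2 change of -0.04 (interval -0.17 to 0.10). For Ndn it was -0.14 (interval -0.36 to 0.08), for Mest -0.18 (interval -0.52 to 0.15) and for Snrpn -0.05 (interval -0.33 to 0.22). Plagl1 was at -0.06, Igf2r at 0.10 and Grb10 at 0.12. The intervals leave room for changes up to those bounds, so these values do not show that the KO left the promoters as they were.

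**Figure D2:**
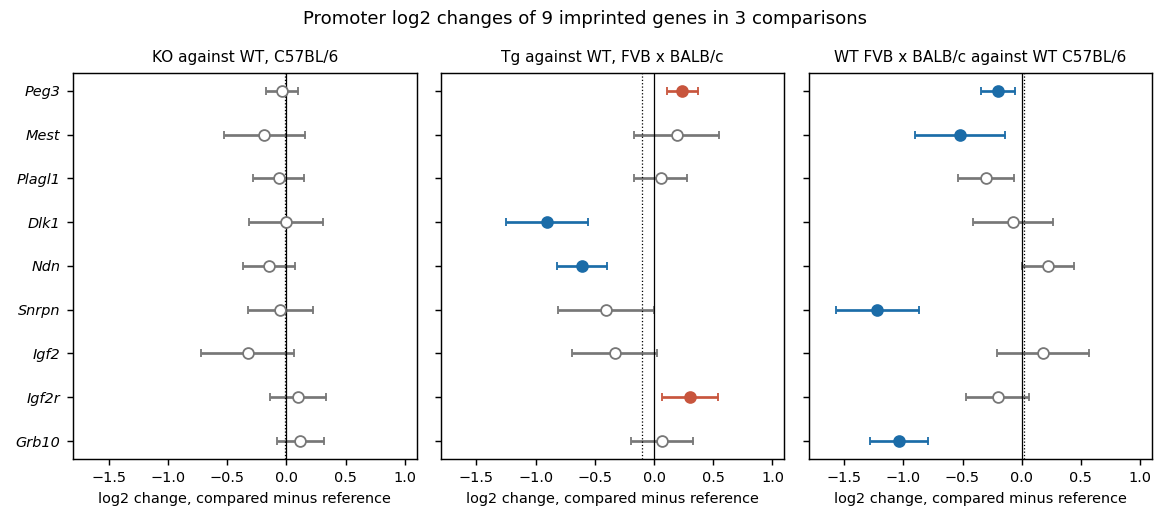
Promoter log2 change (x axis, compared minus reference group) of the 9 genes with 95% intervals in 3 comparisons; filled points passed edgeR adjusted p under 0.05 (red higher, blue lower), and the dotted line is the median of all tested promoters. No point is filled in KO, 4 are filled in Tg and 4 in the comparison of the WT backgrounds.

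Gain of Kat6b was accompanied by lower accessibility at Dlk1 and Ndn and higher accessibility at Peg3 and Igf2r. These 4 of 9 calls stand beside 57.3% of all promoters called in the same comparison (26.9% higher and 30.5% lower, or 5377 and 6093 promoters). Whether the member share differs from that of all promoters was not tested. That split depended on scaling, with 3703 higher and 8211 lower by library totals and 10047 higher and 1290 lower by gene-end factors. The member groups did not overlap at 4 of 9 promoters, against 45.3% of all promoters. The member median log2 change was 0.06, and that over all promoters was -0.10.

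Dlk1 showed the largest promoter log2 change of the members in Tg. It encodes a transmembrane protein related to Notch ligands and known in neural stem cells and their niche. Its promoter stood at 21.2, 16.3, 12.6 and 13.7 CPM in WT FVB x BALB/c libraries 1 to 4 and at 8.04, 8.67, 8.03 and 10.4 in Tg. All 4 Tg values were below all 4 WT values. The level fell to 0.534 of WT (log2 change -0.91, SE 0.18, edgeR adjusted p = 3.7e-06), and it stayed called under all 10 alternative settings run and with each library left out in turn. The Tg effect minus the KO effect was -0.90 (SE 0.24, edgeR adjusted p = 0.0013). Such a difference was called at 29.6% of all promoters and 3 of 9 members. At Dlk1 it was not called when counts were thinned to the smallest library (edgeR adjusted p = 0.0765). The KO change at Dlk1 was -0.00, so this difference nearly repeats the Tg change. Tg was measured on FVB x BALB/c and KO on C57BL/6, so genotype and background cannot be told apart in any such difference.

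Ndn encodes necdin, a protein of the MAGE family that is abundant in postmitotic neurons and lies in the Prader-Willi region with Snrpn. In WT FVB x BALB/c its promoter stood at 41.1, 44.0, 38.3 and 45.2 CPM. In Tg it stood at 27.2, 26.7, 26.0 and 29.8. The groups lay far apart compared with the spread within each, and the level fell to 0.656 of WT (log2 change -0.61, SE 0.11, edgeR adjusted p = 3.1e-07). The difference of the Tg effect from the KO effect was -0.46 (SE 0.15, edgeR adjusted p = 0.0137). With gene-end scaling factors, which moved the median of all promoters to 0.32, Ndn was at -0.19 and no longer called (edgeR adjusted p = 0.202), and its change relative to that median was -0.51. The difference from the KO effect was lost with those factors (-0.14, edgeR adjusted p = 0.617) and with thinned counts (-0.55, 0.0556).

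Peg3 stood at 99.6, 93.7, 97.0 and 95.1 CPM in WT FVB x BALB/c and at 117, 112, 118 and 110 in Tg. Every Tg library was above every WT library, and the rise was small, 1.18-fold (log2 change 0.24, SE 0.07, edgeR adjusted p = 0.0014). It differed from the KO effect by 0.28 (SE 0.10, edgeR adjusted p = 0.0189). With all promoters in 4 equal bins by level, the most open bin, which holds Peg3, had a median log2 change of 0.25 in Tg, and 62.9% of them were called higher. With offsets that follow abundance the Peg3 change was 0.02 (edgeR adjusted p = 0.856), and with library totals it was 0.12 (edgeR adjusted p = 0.0906). The difference from the KO effect was lost with the same settings (0.10 and 0.18, edgeR adjusted p = 0.471 and 0.116) and with thinned counts (0.13, 0.511).

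Igf2r encodes the receptor that carries IGF2 to lysosomes and so limits its level. Its promoter stood at 30.4, 24.9, 23.5 and 17.1 CPM in WT FVB x BALB/c and at 35.0, 30.0, 30.9 and 28.7 in Tg. The ranges overlapped through WT library 1. The rise was 1.24-fold (log2 change 0.31, SE 0.12, edgeR adjusted p = 0.0219). The call was lost without WT library 3 (0.26, edgeR adjusted p = 0.0809), WT library 4 (0.21, 0.150) or Tg library 1 (0.25, 0.0813). It was also lost with library totals (0.19, edgeR adjusted p = 0.158) and with thinned counts (0.27, 0.186). The difference from the KO effect was 0.21 and was not called (edgeR adjusted p = 0.373).

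**Figure D3:**
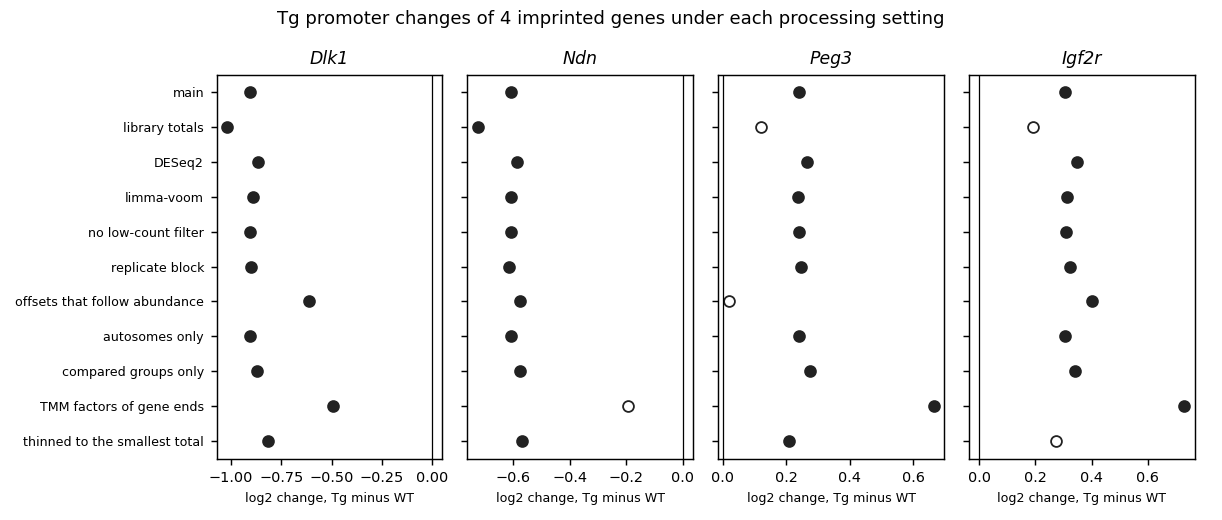
Tg promoter log2 change (x axis, Tg minus WT on FVB x BALB/c, a scale for each gene) of the 4 genes called in Tg, under the main and 10 alternative processing settings (y axis); filled points passed adjusted p under 0.05. Dlk1 is filled in every row, between -1.02 and -0.49, Ndn is open with gene-end factors, and Peg3 and Igf2r are open in 2 rows each.

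The remaining members did not pass the test in Tg. Igf2 stood at 11.7, 13.9, 13.5 and 13.004 CPM in WT FVB x BALB/c and at 9.07, 9.91, 11.4 and 10.4 in Tg. These groups did not overlap, yet the log2 change of -0.33 missed the threshold (SE 0.18, edgeR adjusted p = 0.107). Snrpn encodes a splicing factor of neurons, and a promoter region of the gene controls imprinting of the Prader-Willi domain. Whether the counted Snrpn window covers that region is not given. This window stood at 8.86, 13.4, 7.40 and 11.0 in WT and at 6.74, 7.92, 6.34 and 9.14 in Tg. The log2 change was -0.41 (SE 0.20, edgeR adjusted p = 0.0778), and it became called without WT library 3 (-0.54, edgeR adjusted p = 0.0304) or Tg library 4 (-0.52, 0.0358). Mest, which encodes a hydrolase-like protein, was at 0.19, Grb10 at 0.07, and Plagl1, a zinc finger transcription factor gene, at 0.06. Their intervals were -0.17 to 0.55, -0.19 to 0.32 and -0.17 to 0.28.

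All members but Peg3 lay in the second lowest of these bins, from 8.75 to 35.0 CPM on average. In that bin 40.3% of promoters were called lower and 5.10% higher in Tg, with a median log2 change of -0.27. Dlk1 and Ndn were among the lower and Igf2r among the higher. Ndn, Plagl1 and Grb10, at 34.3 to 34.5 CPM, lay at the upper edge of that bin. In the next bin 38.8% were called higher and 20.3% lower, with a median log2 change of 0.12. Markers of other cell types moved in the same comparison, where 26.9% of all promoters were called higher and 30.5% lower. Of 12 mesenchymal and meningeal markers 5 were called lower and 0 higher, with a summed level of 399 to 442 CPM in WT FVB x BALB/c and 330 to 353 in Tg. Of 6 choroid plexus markers 3 were called lower and 0 higher, with sums of 137 to 156 and 110 to 115 CPM. Of 12 neural stem and progenitor markers 9 were called higher and 1 lower, with sums of 1057 to 1141 and 1484 to 1579 CPM. These have mostly open promoters, with a median at percentile 89.4 of tested promoters in Tg. In the most open bin 62.9% of all promoters were called higher and 10.6% lower. Endothelial markers had sums of 105 to 113 and 93.3 to 103 CPM (2 of 6 lower), microglia and leukocyte markers 55.4 to 73.5 and 47.8 to 58.0 (1 of 6 lower), and erythroid markers 116 to 132 and 91.5 to 100.4 (2 lower and 1 higher of 6). No marker was at 0 in any group. Whether the marker lists differ from other promoters of like level was not tested. The part of these markers in the member changes was not tested either.

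Imprinted genes lie in clusters, and the neighbours of the members were examined next. In the chromosome 12 cluster all 4 tested promoters were lower in Tg, as were 30.5% of all promoters. They are weakly open, and in the lowest bin by level, which holds Rtl1, 50.6% of promoters were called lower, against 40.3% in the next, which holds the other three. Besides Dlk1 these were Dio3, which encodes a deiodinase that inactivates thyroid hormone (13.8 to 7.47 CPM, a log2 change of -0.88, edgeR adjusted p = 4.7e-05), and Begain (35.2 to 21.6 CPM, -0.73, 3.3e-08). Rtl1, a gene derived from a retrotransposon, fell from 6.37 to 3.94 CPM (a log2 change of -0.65, edgeR adjusted p = 0.0378), with overlapping libraries. In KO none of these 4 was called, where 3.99% of all promoters were. The Tg effect differed from the KO effect at Dlk1 and Begain (-0.68, edgeR adjusted p = 0.00031) but was not called different at Dio3 (-0.52, 0.133) or Rtl1 (-0.32, 0.545). Meg3, the maternally expressed RNA of this cluster, was not analysed here.

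In the chromosome 7 domain of Snrpn and Ndn, 4 of 7 promoters were lower in Tg and 0 higher, a share called that is close to the 57.3% of all promoters, of which 30.5% were lower. With Ndn these were Magel2, another MAGE family gene (25.6 to 20.3 CPM, a log2 change of -0.39, edgeR adjusted p = 0.0056), Peg12 (55.7 to 48.3, -0.22, 0.0273) and Snurf (35.6 to 27.1, -0.38, 0.0021). Snurf was added after its values were seen, because RefSeq places its start at the same base as the fourth listed Snrpn start. Snurf and Snrpn had the same gene-end counts in all libraries but different promoter counts, so their deposited promoter windows are not the same, and the tables do not say which listed start each window surrounds. Mkrn3, a zinc finger and RING protein gene, was at 0.04 and Ube3a, the maternally expressed ubiquitin ligase gene of this domain, at -0.12, and neither was called.

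Beside Peg3 the promoter of Usp29 rose by 0.27 (77.8 to 94.6 CPM, edgeR adjusted p = 0.0011). Its start lies 164 bases from that of Peg3 in GRCm38.p6, on the opposite strand, so windows around both starts would share most of their reads and are not separate observations. Zim1, a maternally expressed zinc finger gene of the same cluster, moved the other way, from 65.0 to 46.4 CPM (a log2 change of -0.51, edgeR adjusted p = 2.5e-07). In the Igf2 region Cdkn1c, which encodes a cyclin-dependent kinase inhibitor, rose from 42.8 to 63.4 CPM (0.58, edgeR adjusted p = 1.2e-08). Kcnq1 (-0.43) and Phlda2 (-0.36) fell (edgeR adjusted p = 0.0276 and 0.0308), and Ins2 was not called (-0.20). Copg2, beside Mest, rose by 0.49 (edgeR adjusted p = 1.9e-10), while Klf14 was at 0.07. Near Grb10, Ddc fell by 0.67 and Cobl by 0.46 (edgeR adjusted p = 0.0104 and 0.0019), and near Plagl1, Phactr2 fell by 0.44 (0.00097). Slc22a2 and Slc22a3, beside Igf2r, were not called. Neighbours of the members thus moved both with and against them.

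**Figure D4:**
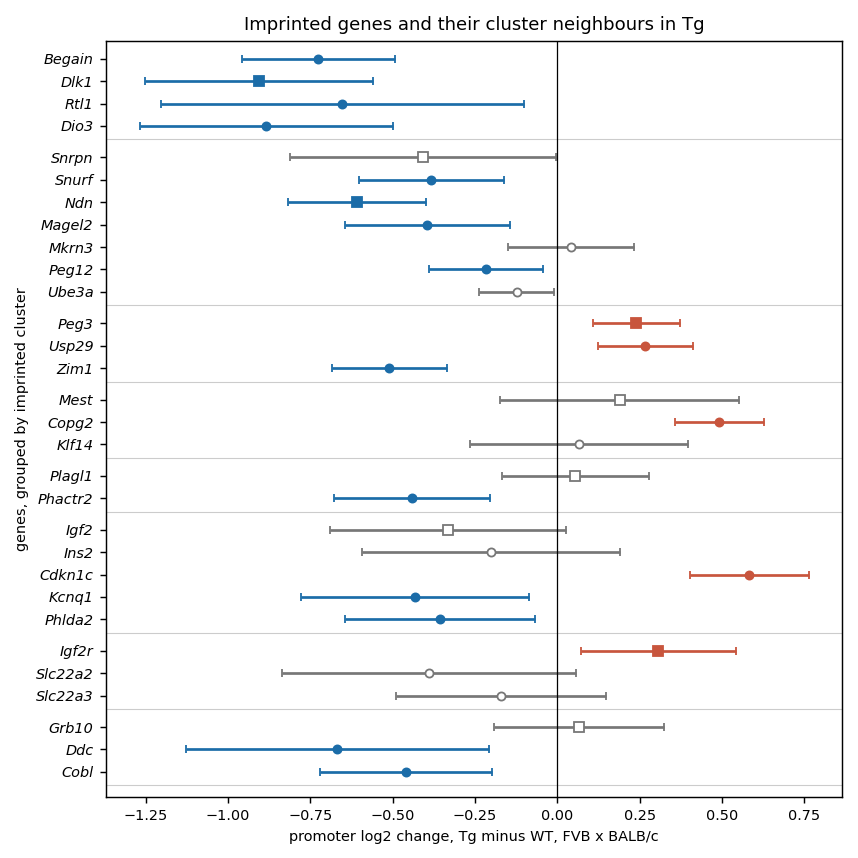
Promoter log2 change in Tg (x axis, with 95% intervals) for the 9 genes (squares) and neighbours of their clusters (circles), with clusters parted by lines; filled symbols passed edgeR adjusted p under 0.05 (red higher, blue lower). The Dlk1 cluster at the top, from Begain to Dio3, lies wholly to the left of 0, from -0.65 to -0.91, and Peg3 and Zim1 lie on opposite sides.

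Across a wider list of 69 other imprinted genes, 58 were in the table, and in Tg 13 were higher, 21 lower and 24 not called. That is 58.6% called, against 57.3% of all promoters, with a median log2 change of -0.20. Higher were Nnat (23.8 to 40.5 CPM, log2 change 0.78), Cd81 (0.53), Peg10 (0.39) and Nap1l4 (0.31), besides Cdkn1c and Copg2. Lower were Calcr, the calcitonin receptor gene (-0.88), Sfmbt2 (-0.70), Atp10a (-0.63) and Dcn (-0.53), besides Dio3 and Begain. In KO only Tssc4 was called, at 0.19 (159 to 181 CPM, edgeR adjusted p = 0.0457), where 3.99% of all promoters were. Of the 58 genes, 9 had an unadjusted p under 0.05 there (edgeR). The list was drawn up with earlier results of these data known.

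The IGF pathway, to which Igf2, Igf2r and Grb10 belong, was followed through 15 other genes. In Tg 10 were higher, 1 lower and 4 not called, with a median log2 change of 0.40. Over all promoters 26.9% were called higher, with a median of -0.10. Most of these genes have open promoters, however: 8 of the 15 lay in the most open bin, where 62.9% of promoters were called higher, and 5 in the next, where 38.8% were. Irs2, an adaptor below the receptors, rose from 140.0 to 222 CPM (0.66, edgeR adjusted p = 3.8e-22) and Igf1r, the signalling receptor, from 144 to 231 (0.66, 1.4e-21). Igfbp5, a binding protein, rose by 0.64, the RNA-binding protein genes Igf2bp3 and Igf2bp2 by 0.57 and 0.47, and Pik3r1 by 0.42. Igf1 itself fell from 25.7 to 14.1 CPM (a log2 change of -0.91, edgeR adjusted p = 2.1e-08). In KO only Igf1r was called, at 0.19 (196 to 223 CPM, edgeR adjusted p = 0.0358), where 3.99% of all promoters were. Of the 15 genes, 5 had an unadjusted p under 0.05 there (edgeR).

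The largest promoter changes of members lay between the WT backgrounds, at Snrpn and Grb10. Of the 9 members 4 were called between the backgrounds in WT cells, all lower in FVB x BALB/c, against 18.7% of promoters called in all and 11.8% called lower. Groups did not overlap at 5 of 9 members, against 18.7% of promoters. The overall split was 1397 higher and 2352 lower, but 1891 and 1763 with library totals, 1608 and 1723 with offsets that follow abundance, and 421 and 5773 with gene-end factors, whose all-promoter median was -0.19. Calls in this comparison also varied with level. In the most open bin, which holds Peg3, 24.1% of promoters were lower and 5.06% higher in FVB x BALB/c. In the bin of the other members 8.76% were lower and 10.2% higher, and in the lowest bin 0.980% and 4.82%. Cell type markers also differed in this comparison. Of 12 neural stem and progenitor markers 7 were lower and 1 higher in FVB x BALB/c (sums of 1288 to 1350 CPM in WT C57BL/6 and 1057 to 1141 in FVB x BALB/c), and of 12 mesenchymal and meningeal markers 5 were lower and 1 higher (454 to 487 and 399 to 442 CPM). Of 6 choroid plexus markers 1 was lower (139 to 160.3 and 137 to 156 CPM), of 6 microglia and leukocyte markers 1 was higher (42.7 to 52.1 and 55.4 to 73.5 CPM), and 0 of 6 endothelial (106 to 121 and 105 to 113 CPM) and 0 of 6 erythroid markers (93.5 to 126 and 116 to 132 CPM) were called by edgeR, with 1 in each list at an unadjusted p under 0.05. The neural stem and progenitor markers have mostly open promoters, with a median at percentile 88.3 in WT C57BL/6. Whether the marker lists differ from promoters of like level was not tested here. The part of these markers in the member differences was not tested either. The comparison sets separate embryos of each background side by side, and any difference in preparation cannot be told apart from the background. Reads of both were counted on mm39, an assembly of C57BL/6J, and the part of sequence differences in mapping was not tested.

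Grb10 encodes an adaptor that restrains insulin and IGF receptor signalling. Its promoter stood at 47.4, 46.6, 37.3 and 46.8 CPM in WT C57BL/6 and at 25.3, 22.8, 17.4 and 19.8 in WT FVB x BALB/c. Every C57BL/6 library was above every FVB x BALB/c library, and the level there was 0.488 of that in C57BL/6 (log2 change -1.04, SE 0.13, edgeR adjusted p = 1.8e-12). KO libraries stood at 42.6 to 56.0 CPM, beside their C57BL/6 controls, and Tg libraries at 22.2 to 23.8, beside theirs. The call held under all 10 alternatives run and with each library left out in turn. Cobl, beside Grb10, went the other way (17.9 to 25.3 CPM, 0.50, edgeR adjusted p = 0.0085).

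Snrpn stood at 28.9, 24.6, 20.3 and 19.8 CPM in WT C57BL/6, against 7.40 to 13.4 in WT FVB x BALB/c. The groups were fully apart (0.429 of the C57BL/6 level, log2 change -1.22, SE 0.18, edgeR adjusted p = 5.6e-09), and this call too held under the 10 alternatives and without each library in turn. Its neighbours did not share the difference in a uniform way. Magel2 was lower in FVB x BALB/c (46.2 to 25.6 CPM, -0.80, edgeR adjusted p = 9.2e-09), Ndn was at 0.22 (0.160) and Snurf at 0.30 (0.0667). Mest was lower (15.8 to 10.9 CPM, a log2 change of -0.52, edgeR adjusted p = 0.0414), and so was Peg3 (112 to 96.4 CPM, -0.20, 0.0388). Both calls were close to the threshold, and 5 of the 10 alternatives ended each of them (adjusted p up to 0.332 for Mest and 0.575 for Peg3). The Mest call was lost when any library but WT C57BL/6 library 1 was left out (edgeR adjusted p 0.0524 to 0.130), and the Peg3 call when any but WT C57BL/6 library 4 and WT FVB x BALB/c library 1 was left out (0.0613 to 0.120). Plagl1 had groups that did not overlap but was not called (-0.30, edgeR adjusted p = 0.0653). Of the other imprinted genes Asb4 had the largest difference (55.8 to 23.3 CPM, -1.25, edgeR adjusted p = 3.9e-19).

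At gene ends, windows of 1001 bp downstream of the transcript, only Igf2, Igf2r, Mest, Plagl1 and Dlk1 passed the filter on low counts, with 4 to 29 counts per library. Peg3, Grb10, Snrpn and Ndn did not pass and were not tested, with 1 to 15 counts. Mest was the only call. Its gene end stood at 62.3, 41.7, 66.5 and 62.6 CPM in WT FVB x BALB/c and at 17.3, 46.2, 24.6 and 25.5 in Tg, where libraries 1, 3 and 4 lay below all WT values and library 2 did not. The Tg level was 0.491 of WT (log2 change -1.03, SE 0.28, edgeR adjusted p = 0.0076), where 6.27% of the 15186 gene ends tested were called and 1.64% were called lower. It was lost without WT library 3 (-0.94, edgeR adjusted p = 0.0512) or Tg library 1 (-0.86, 0.0639), and when counts were thinned (-0.68, 0.370). The Mest promoter was not called in this comparison.

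The Igf2 gene end stood at 32.6, 41.7, 26.6 and 36.5 CPM in WT FVB x BALB/c and at 46.2, 51.7, 61.6 and 67.2 in Tg. The groups did not overlap, as at 10.1% of all gene ends, but the log2 change of 0.75 was not called (SE 0.28, edgeR adjusted p = 0.0926). The Dlk1 gene end was 43.8 to 75.2 CPM in WT C57BL/6 and 23.7 to 41.7 in WT FVB x BALB/c (log2 change -0.77, edgeR adjusted p = 0.225), without overlap, as at 7.09% of all gene ends. In KO 0 of 5 gene ends were called, where 1.52% of all were, and 0 had groups that did not overlap (5.12% of all). In that comparison 0 had an unadjusted p under 0.05 (edgeR), with limma-voom also calling 0. In the comparison of backgrounds 0 of 5 were called against 3.33%, with 1 at an unadjusted p under 0.05 and 0 by limma-voom.

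**Figure D5:**
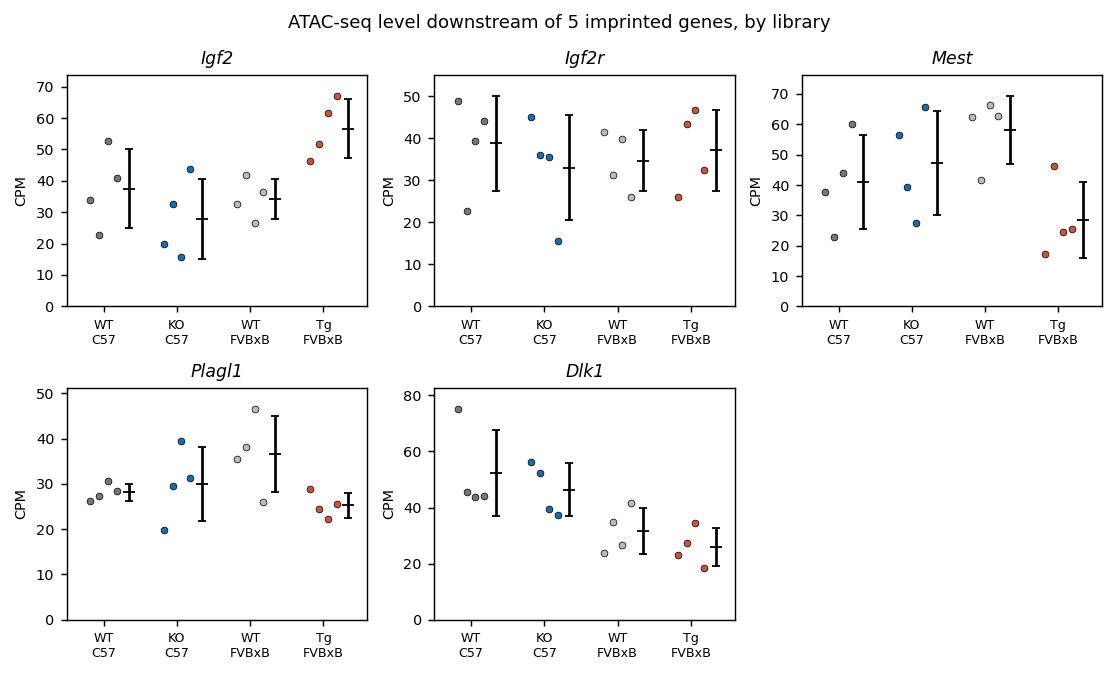
ATAC-seq level (CPM, y axis from 0) in the windows downstream of the 5 genes tested there, in 4 libraries per group (x axis; C57 is C57BL/6 and FVBxB is FVB x BALB/c); points are libraries and bars are mean ± SD. Spread within groups is wide, as at Mest in Tg, where libraries ran from 17.3 to 46.2 CPM.

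Likeness between promoters was measured over all 16 libraries as the root mean square difference of centred log2 CPM, among 14435 promoters with a mean of at least 10 CPM. The promoter most like Dlk1 was Begain, which lies in the same cluster, at 0.158 log2 units, where the median promoter was 0.489 from Dlk1. No other member had a gene of its own cluster as its nearest. Peg3 was closest to Rap2a (0.0543, median 0.192), Ndn to Ifi44l (0.0924, median 0.324) and Grb10 to Entpd4b (0.135, median 0.570). Igf2r was nearest to Dbf4, Igf2 to Gdpd3, Mest to Ssr1, Plagl1 to Fmn1 and Snrpn to Ankrd35, at 0.0780 to 0.177. The libraries share depth and group structure, so these values are a description only.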

How the data were processed

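The authors deposited whole-number counts of ATAC-seq reads per promoter (2001 bp), per gene end (1001 bp) and per region marked by H3K4me1 and H3K27ac. Reads were counted with featureCounts on mm39, per the submitters' processing notes; aligner, read filters and settings were not given in the sources used here. Of 20113 gene IDs, 20091 matched symbols in RefSeq's GRCm38.p6 table, which gave names and promoter sequences.

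Promoters and gene ends were fitted separately with edgeR 4.0.16 (quasi-likelihood, robust, R 4.3.3) over all 16 libraries, with a coefficient per group, TMM factors and filterByExpr. Chromosome Y, Xist and Tsix (17 regions in each class) were left out. This left 20008 promoters and 15186 gene ends, and p-values were Benjamini-Hochberg adjusted over each class at 0.05. CPM are TMM-scaled. The median tested promoter held 49 to 158 counts per library and the median gene end 8 to 17. The difference of effects is the Tg change minus the KO change, each measured on its own background. Fits were also run on simulated counts with as many rises as falls, which cannot check the scaling that the Tg comparison depends on.

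No library was taken as a duplicate, since replicates differed beyond sampling noise (lowest chi-square to degrees of freedom ratio 1.05 over 24 pairs). Each library is a separate embryo per the series design text. All 9 members are reported. From the lists of other imprinted, imprint maintenance and IGF pathway genes, up to 6 called genes per direction with the largest changes and a mean of at least 10 CPM are named, besides fixed cluster neighbours. Members and lists were chosen with earlier results of these data known. Alternatives were DESeq2 1.42.0, limma-voom (limma 3.58.1), library totals, offsets that follow abundance, gene-end factors, no low-count filter, autosomes only, the compared groups only, thinned counts, a replicate block and each library left out.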

Additional observations from a re-analysis of the deposited data

Results flagged for a closer look

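A library stood apart from the other 3 of its group at 6 of 72 member-by-group values checked, where chance flags about 1 in 20. At promoters these were Igf2r in WT C57BL/6 library 3 (32.7 CPM, the others 27.6 to 28.0), Grb10 in the same library (37.3, the others 46.6 to 47.4) and Mest in KO library 4 (10.5, the others 14.7 to 15.5). At gene ends they were Dlk1 in WT C57BL/6 library 1 (75.2 CPM, the others 43.8 to 45.5), Grb10 in KO library 2 (49.03, the others 25.4 to 28.1) and Ndn in WT FVB x BALB/c library 3 (36.6, the others 26.1 to 27.8).

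The Tg effect differed from the KO effect at 3 promoters by the interaction contrast: Peg3 (0.28), Dlk1 (-0.90) and Ndn (-0.46), on the log2 scale. Over all promoters 29.6% passed the same test. The Tg and KO effects were measured on different backgrounds, so genotype and background cannot be told apart in these differences.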

How the results depend on the processing

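No member change that was called in the main fit turned direction in 235 recalculations of 12 called results, 195 stayed called and 40 missed the threshold. The limits are depth, which at gene ends was a few counts per member, and the scaling of libraries. Library totals moved the median promoter in Tg from -0.10 to -0.21 and gene-end factors moved it to 0.32 on the log2 scale. The causes of the shifts below were not tested. Among all promoters, KO calls went from 798 to 427 with DESeq2, 371 with gene-end factors and 309 with thinned counts. Tg calls went from 11470 to 7232 with offsets that follow abundance and 7412 thinned. Calls on the difference of effects went from 5926 to 3296 thinned, and calls between backgrounds from 3749 to 6194 with gene-end factors and 2367 thinned. KO splits were 418 higher and 380 lower, but 299 and 468 with library totals, 264 and 442 with abundance offsets, and 232 and 139 with gene-end factors. For the difference of effects they were 3399 and 2527, but 2314 and 3553, 1989 and 2522, and 7024 and 575 in that order, and 3201 and 1544 with DESeq2. Among members, the difference was called at 5 with gene-end factors and 0 thinned, and backgrounds, at 4 in the main fit, at 2 with library totals, DESeq2, the compared groups only or thinned counts and at 6 with gene-end factors, which added Igf2r (-0.41) and Plagl1 (-0.51; relative to the median, -0.22 and -0.31). With gene-end factors Mest (0.60), Plagl1 (0.47) and Grb10 (0.48) were called higher in Tg, and with library totals Igf2 (-0.45) and Snrpn (-0.52) were called lower; relative to the median of all promoters these were 0.28, 0.15, 0.16, -0.24 and -0.31. Mest was also called higher with abundance offsets (0.51).

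Gene-end calls changed from 231 to 117 in KO on autosomes only, from 952 to 606 in Tg and from 404 to 258 for the difference with abundance offsets. The Mest gene-end call in Tg fell to 0 when thinned, DESeq2 gave it no adjusted p, and with library totals its difference of effects was the 1 member call. Leaving out each library gave 537 to 739 promoter calls in KO, 10165 to 11243 in Tg, 5311 to 6229 for the difference and 2988 to 3535 between backgrounds, with 0, 3 to 5, 3 and 2 to 3 members. Gene-end calls were 139 to 230, 783 to 932, 298 to 458 and 381 to 538, with 0, 0 to 1, 0 to 1 and 0 members.

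Deviations of same-numbered libraries had correlations of -0.111 to 0.179, within the -0.228 to 0.201 of all 48 pairs checked. No pairing by number was seen. Pairing by litter or preparation date, which the labels do not give, was not tested. With a replicate block the promoter calls were 763, 11523, 5951 and 3797, and no member call changed.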

Other observations

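Genes that keep or remove imprints were examined at their promoters as well. Of 20 such genes, 10 were called higher and 4 lower in Tg, against 57.3% of all promoters called either way (26.9% higher and 30.5% lower). The most open bin by level held 8 of them, and 62.9% of promoters in that bin were higher. Dnmt3a, a de novo DNA methyltransferase gene, rose from 82.8 to 132 CPM (a log2 change of 0.64, edgeR adjusted p = 1.1e-15). Ehmt2, a histone H3 methyltransferase gene, rose by 0.57, and Ctcf, the insulator protein gene, by 0.52 (edgeR adjusted p = 6.1e-10 and 1.5e-13). Tet3 (0.46), Setdb1 (0.30) and Atrx (0.27) were also higher. Hells, a chromatin remodeller gene needed for DNA methylation, fell from 43.9 to 33.7 CPM (-0.39, edgeR adjusted p = 0.00072), and Zfp445, a zinc finger gene of imprint maintenance, from 29.6 to 23.7 (-0.33, 0.0142). In KO only Uhrf1 was called (93.1 to 111 CPM, 0.25, edgeR adjusted p = 0.0194), where 3.99% of all promoters were. Its protein brings the maintenance methyltransferase to replicated DNA. Of the 20 genes, 5 had an unadjusted p under 0.05 in KO (edgeR). The Tg effect at Uhrf1 differed from its KO effect by -0.39 (edgeR adjusted p = 0.0010).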
